A study of Homo sapiens with 8 samples.

Results

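The endoplasmic reticulum (ER) is where secreted and membrane proteins fold, and 10 genes of its folding and stress machinery were followed here. They encode the Hsp70 and Hsp90 chaperones of the ER lumen (HSPA5, HSP90B1), the lectin chaperones (CALR, CANX), a pair of protein disulfide isomerases (PDIA4, PDIA6), a pair of BiP-associated factors (DNAJB9, SDF2L1), a membrane protein of ER-associated degradation (HERPUD1) and a transcription factor of the unfolded protein response (XBP1). The genes were chosen by symbol and matched to the count files by Ensembl identifier through GENCODE annotation, and they are 10 of the 60668 genes listed there. All 10 passed the expression filter, which left 15222 genes to be tested.

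The cells were D283-OMO, made from D283 MED, a long-established medulloblastoma cell line, by lentiviral transduction with a FLAG-tagged OMOMYC transgene under doxycycline (DOX) control and antibiotic selection. OMOMYC is a dominant-negative mini-protein derived from MYC. The untreated group (4 replicates) and the group treated with DOX for 72 h (4 replicates) both carried the transgene and differed in DOX. All 8 libraries hold polyA+ RNA and come from the one transduced line. No DOX-treated line without the transgene was analysed here, so effects of OMOMYC and of DOX itself cannot be told apart.

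When unfolded proteins accumulate in the ER lumen, 3 membrane sensors start the unfolded protein response. IRE1 (gene ERN1) splices XBP1 mRNA, PERK (EIF2AK3) phosphorylates a translation initiation factor and thereby favours translation of ATF4, and ATF6 is cut in the Golgi to free a transcription factor. ATF6 and spliced XBP1 raise transcription of chaperone and degradation genes, many of which carry the ER stress response element (ERSE) in their promoters, and BiP itself holds the sensors inactive while it is free. MYC is known for driving ribosome production and protein synthesis. Counts per gene, as used here, do not show XBP1 splicing, sensor phosphorylation or ATF6 cleavage.

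The ERSE is written CCAAT, then 9 bases of any kind, then CCACG, and is read by NF-Y together with ATF6. A second form, ERSE-II, is written ATTGG, then 1 base of any kind, then CCACG. Exact matches on either strand were sought in the 250 bases before each RefSeq transcription start (GRCh38.p14), and all 10 genes had such a window. CANX had 4 windows and PDIA4, PDIA6 and XBP1 had 2 each, and a match in any window counted. A window can lie within the GENCODE 29 span of its gene, which covers all its transcripts. Every window of HSP90B1, CANX, PDIA6 and DNAJB9 did so with all 250 bases. An ERSE was found at 6 of the 10 genes and at 0.0916% of all 27305 genes with a window (0.0740% of 35116 windows, since a gene can have several). Many genes of this response are known to carry the element, so its share among the 10 is a description and no independent finding. The sites follow with the outer parts of the element in capitals and 5 flanking bases on each side. The strand is the one on which the element reads forward:
HSPA5, chr9:125241386-125241414, minus strand: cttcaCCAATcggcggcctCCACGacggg
HSP90B1, chr12:103930211-103930239, plus strand: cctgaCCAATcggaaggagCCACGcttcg
HSP90B1, chr12:103930316-103930344, minus strand: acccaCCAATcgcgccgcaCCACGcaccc
CALR, chr19:12938379-12938407, minus strand: accgaCCAATgatggtcgaCCACGcgtgg
CANX, chr5:179698773-179698801, plus strand: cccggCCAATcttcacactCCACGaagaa
PDIA6, chr2:10812848-10812876, minus strand: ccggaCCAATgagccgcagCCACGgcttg
XBP1, chr22:28800598-28800626, minus strand: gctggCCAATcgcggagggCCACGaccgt

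ERSE-II was found at SDF2L1 and HERPUD1 and at 0.0659% of all genes (0.0513% of windows). Its sites are shown in the same way, with the outer parts of the element in capitals:
SDF2L1, chr22:21642109-21642129, minus strand: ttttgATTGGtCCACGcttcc
HERPUD1, chr16:56932020-56932040, plus strand: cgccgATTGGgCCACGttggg
In all, 8 of the 10 genes held one of these forms and PDIA4 and DNAJB9 held neither as an exact match in this window. The canonical E-box CACGTG, which MYC and other basic helix-loop-helix factors read, was found at HSP90B1, DNAJB9 and HERPUD1 and at 7.73% of all genes (6.34% of windows). The E-boxes are shown in capitals:
HSP90B1, chr12:103930160-103930172, plus strand: ccCACGTGtgagg
DNAJB9, chr7:108569796-108569811, plus strand: ttttcCACGTGcgcgt
DNAJB9, chr7:108569820-108569835, plus strand: gggatCACGTGgggag
HERPUD1, chr16:56931978-56931993, plus strand: gtgccCACGTGctcgg
An exact match describes the letters of the window and not binding.

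The whole HSPA5 window is given as the best-known promoter of this response. It is chr9:125241344-125241593, minus strand of GRCh38.p14, from 250 bases before the start up to the base before it. Near matches were not sought, and the 1 exact ERSE match is in capitals at its outer parts:
HSPA5 upstream window: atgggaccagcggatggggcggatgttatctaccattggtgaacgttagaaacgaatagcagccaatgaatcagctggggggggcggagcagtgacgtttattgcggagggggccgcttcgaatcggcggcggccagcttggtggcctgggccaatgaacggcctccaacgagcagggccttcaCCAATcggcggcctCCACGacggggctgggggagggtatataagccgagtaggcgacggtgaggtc

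**Figure D1:**
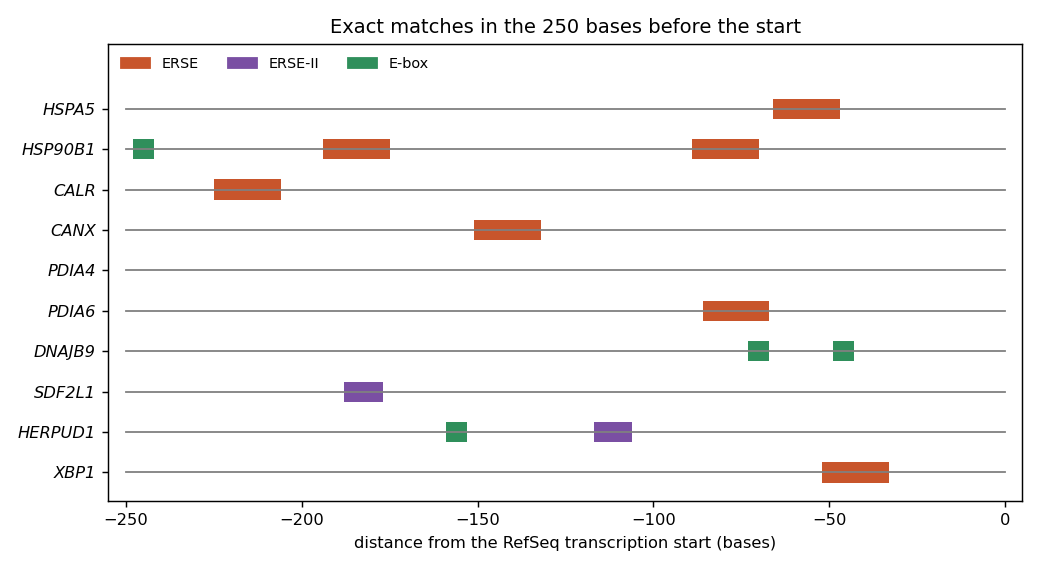
Exact matches to the ERSE, ERSE-II and the E-box CACGTG in the 250 bases before the RefSeq start of each gene, with the distance from the start in bases on the horizontal axis. The ERSE of HSPA5 lies 66 to 48 bases before the start and that of XBP1 52 to 34 bases before it, while PDIA4 has no match.

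Expression was read as RSEM expected counts, scaled to a common library size (CPM) with edgeR's TMM factors. Total counts ranged from 46592882 to 54020451 in untreated and from 38390649 to 49249120 in DOX-treated libraries. Untreated and DOX-treated libraries were compared with edgeR's quasi-likelihood test, with p-values adjusted over the 15222 genes by the Benjamini-Hochberg method. Changes are log2 fold changes (log2FC) of DOX-treated over untreated cells, each with its standard error (SE). Untreated replicate 3 stood apart from its group, with chi-square per degree of freedom between 27.04 and 39.79 against the other untreated libraries, whereas those differed among themselves by 3.43 to 6.70. Of 6 markers of the D283 lineage, 5 were above 1 CPM in every library (OTX2, CRX, NRL, NEUROD1 and IMPG2) and EOMES reached at most 1.03 CPM. All 5 fell with DOX, OTX2 from 1049 to 510 CPM and IMPG2 from 473 to 58.7 CPM. Of 6 markers of other cell types, PTPRC, CD68, PECAM1, GFAP and KRT18 reached at most 0.694 CPM in any library, and COL1A1 lay between 20.8 and 24.9 CPM. As a check of the labels, the MYC targets CAD (log2FC -0.48, SE 0.05, adjusted p = 1.33e-06) and NCL (log2FC -0.44, SE 0.04, adjusted p = 1.23e-06) were lower with DOX. MYC RNA was higher (log2FC 0.26, SE 0.06, adjusted p = 0.00237), and reads of the transgene cannot be told apart from it.

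Of the 10 genes, 9 were lower in DOX-treated cells at an adjusted p below 0.05 (edgeR quasi-likelihood test), 0 were higher, and HERPUD1 did not pass the test. DOX changed much of the transcriptome, and 38.1% of all genes tested were lower and 38.5% higher by the same rule. The median log2FC of the 10 genes was -0.41, beside 0.01 over all genes tested, whose middle range from lower to upper quartile ran from -0.43 to 0.44. The changes were moderate in size. None of the 10 passed an absolute log2FC of 1, which 9.81% of all genes did downwards and 11% upwards, nor the stricter thresholds of the study's methods (FDR under 0.001 with an absolute log2FC over 2), which 2.75% did downwards and 4.38% upwards. For 7 of the 10, every DOX-treated library lay below every untreated one, which was so for 35.4% of all genes tested, and for 0 every DOX-treated library lay above, against 36.3% of all genes. Among the 2036 genes with a mean above 100 CPM, 50.9% were lower and the median log2FC was -0.15. HSPA5, HSP90B1, CALR, CANX, PDIA6 and XBP1 belong to these highly expressed genes, so their direction is read against that share.

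Summed over the 10 genes, the level was 3724 ± 61.99 CPM in untreated and 2643 ± 98.3 CPM in DOX-treated cells (SD, n = 4 each). Untreated sums lay between 3655 and 3804 CPM and the DOX-treated sums between 2537 and 2744 CPM. As a share of all counts, without TMM scaling, the 10 genes made up 0.356% ± 0.00422 (SD, n = 4) and 0.275% ± 0.00985 (SD, n = 4). The share of mitochondrially encoded RNA moved the other way, from between 4.73% and 5.13% to between 5.70% and 5.95%, and its part in these values was not tested. In bulk RNA, fewer cells of a kind and less RNA per cell cannot be told apart.

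**Figure D2:**
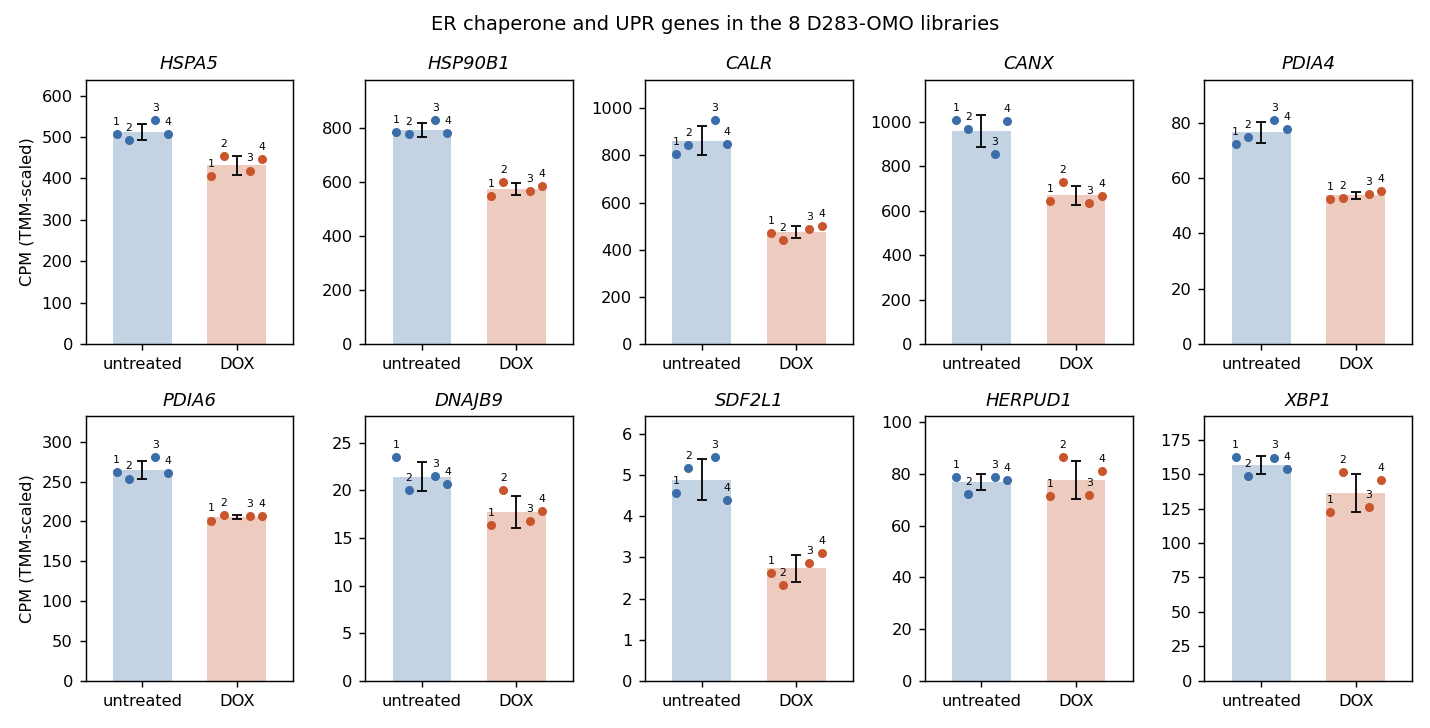
CPM of each gene (vertical axes, TMM-scaled, starting at 0) in the 4 untreated (blue) and 4 DOX-treated (orange) libraries. Points are libraries with their replicate number, bars are means and error bars are SDs. The groups are apart for 7 genes, and they overlap for DNAJB9, HERPUD1 and XBP1.

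HSPA5 (ENSG00000044574.8, chr9:125234853-125241330, minus strand of GRCh38) encodes BiP, the Hsp70 chaperone that binds unfolded stretches of new proteins in the ER lumen. It stood at 506, 494, 541 and 507 CPM in untreated replicates 1 to 4 and at 407, 453, 419 and 446 CPM in DOX-treated replicates 1 to 4. Every DOX-treated library lay below every untreated one. The group means were 512 ± 20.1 and 431 ± 22.02 CPM (SD, n = 4 each), and BiP RNA was 15.8% lower (log2FC -0.25, SE 0.05, adjusted p = 7.48e-04). This was the smallest change among the 7 genes whose groups did not overlap.

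HSP90B1 (ENSG00000166598.15, chr12:103930107-103953645, plus strand) encodes endoplasmin, the Hsp90 chaperone of the ER, whose clients include integrins and Toll-like receptors. Untreated replicates 1 to 4 gave 783, 776, 828 and 778 CPM and DOX-treated replicates 548, 599, 565 and 583 CPM. The groups were far apart compared with their spread, with replicate 3 the highest of the untreated libraries. Means were 791 ± 24.5 and 574 ± 22.3 CPM (SD, n = 4 each), and the log2FC was -0.46 (SE 0.04, adjusted p = 1.77e-06), or 27.5% lower. The difference in log2FC between HSPA5 and HSP90B1, the main lumenal chaperones, was not tested.

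The lectin chaperones hold newly made glycoproteins by their sugar until they fold. CALR (ENSG00000179218.13, chr19:12938578-12944489, plus strand) encodes calreticulin, the soluble and calcium-binding one. It gave 807, 842, 949 and 847 CPM in untreated and 471, 443, 487 and 501 CPM in DOX-treated replicates 1 to 4. No DOX-treated library came near the untreated ones, and the spread within either group was small beside the gap. From a mean of 861 ± 61.2 to 475 ± 25.2 CPM (SD, n = 4 each), CALR was 44.8% lower (log2FC -0.86, SE 0.06, adjusted p = 9.43e-08), the lowest log2FC of the 10, next to SDF2L1 at -0.84. Of all genes tested, 12.1% had a lower log2FC than CALR.

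CANX (ENSG00000127022.15, chr5:179678628-179730925, plus strand) encodes calnexin, the membrane-bound partner of calreticulin in the same cycle. Its levels were 1008, 968, 857 and 1004 CPM in untreated and 645, 728, 636 and 668 CPM in DOX-treated replicates 1 to 4. Untreated replicate 3 was the lowest of its group here and the highest for CALR, yet it lay above all DOX-treated libraries. Calnexin RNA was 30.3% lower, at 959 ± 70.3 and 669 ± 41.3 CPM (SD, n = 4 each), with a log2FC of -0.52 (SE 0.06, adjusted p = 1.23e-05). The ratio of CALR to CANX counts, chosen after the values were seen and given as a description, lay between 0.800 and 1.11 in untreated and between 0.608 and 0.765 in DOX-treated libraries.

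Protein disulfide isomerases form and reshuffle disulfide bonds. PDIA4 (ENSG00000155660.11, chr7:149003062-149028641, minus strand) gave 72.3, 74.9, 81.0 and 77.9 CPM in untreated and 52.6, 52.7, 54.3 and 55.5 CPM in DOX-treated replicates 1 to 4. The DOX-treated libraries lay close together and all below the untreated ones. Means were 76.5 ± 3.75 and 53.8 ± 1.37 CPM (SD, n = 4 each), and PDIA4 was 29.7% lower (log2FC -0.51, SE 0.05, adjusted p = 1.29e-06). PDIA6 (ENSG00000143870.12, chr2:10783391-10837977, minus strand), an isomerase that works with BiP, gave 262, 254, 281 and 261 CPM in untreated and 201, 208, 206 and 206 CPM in DOX-treated replicates. Again no library crossed between groups. Its means were 264 ± 11.7 and 205 ± 3.02 CPM (SD, n = 4 each), and it was 22.3% lower (log2FC -0.36, SE 0.04, adjusted p = 1.36e-05). PDIA6 shares 1033 exonic bases with ATP6V1C2 on the other strand, a gene with 177 to 350 counts per library against 8353 or more for PDIA6.

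A pair of lesser expressed lumenal factors work with BiP. SDF2L1 (ENSG00000128228.5, chr22:21642261-21644298, plus strand) supports BiP's release of its clients. It gave 4.57, 5.17, 5.45 and 4.39 CPM in untreated and 2.62, 2.34, 2.87 and 3.10 CPM in DOX-treated replicates 1 to 4, from 94 to 268 counts per library. All DOX-treated libraries lay below the untreated ones. Means were 4.89 ± 0.496 and 2.74 ± 0.328 CPM (SD, n = 4 each), a fall of 44.0% (log2FC -0.84, SE 0.11, adjusted p = 2.98e-05). Its SE was the largest of the 10, at the lowest counts.

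DNAJB9 (ENSG00000128590.5, chr7:108569568-108574850, plus strand) encodes ERdj4, a J-domain protein that stimulates BiP and helps it to keep IRE1 inactive. Untreated replicates 1 to 4 gave 23.5, 20.01, 21.5 and 20.7 CPM and DOX-treated replicates 16.3, 20.04, 16.7 and 17.9 CPM. DOX-treated replicate 2 reached the lowest untreated library, so the groups overlapped. The means of 21.4 ± 1.52 and 17.7 ± 1.66 CPM (SD, n = 4 each) differed by a log2FC of -0.28 (SE 0.07, adjusted p = 0.00518). DNAJB9 shares 183 exonic bases with THAP5 and 99 with PNPLA8, both on the other strand. THAP5 had 904 to 1387.5 counts per library and PNPLA8 737 to 962.5, similar to the 804 to 1153 of DNAJB9. Whether counting used the strand is not given in the sources used here.

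HERPUD1 (ENSG00000051108.15, chr16:56932048-56944863, plus strand) encodes a membrane protein with a ubiquitin-like domain that serves the HRD1 ubiquitin ligase in degrading misfolded ER proteins. It gave 78.7, 72.3, 78.6 and 77.5 CPM in untreated and 71.6, 86.6, 71.7 and 81.0 CPM in DOX-treated replicates 1 to 4. DOX-treated replicates 2 and 4 lay above all untreated libraries and replicates 1 and 3 below them. The means of 76.8 ± 3.02 and 77.7 ± 7.38 CPM (SD, n = 4 each) gave a log2FC of 0.02 (SE 0.07, adjusted p = 0.828), and the sign turned in 4 of the 15 alternative fits. As a description, the ratio of HERPUD1 to HSPA5 counts, also chosen after the values were seen, lay between 0.145 and 0.155 in untreated and between 0.171 and 0.191 in DOX-treated libraries.

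XBP1 (ENSG00000100219.16, chr22:28794555-28800597, minus strand) encodes the transcription factor that IRE1 activates by splicing its mRNA. It gave 163, 149, 162 and 154 CPM in untreated and 123, 151, 126 and 145 CPM in DOX-treated replicates 1 to 4. DOX-treated replicate 2 lay within the untreated range and replicate 4 just below it. The means were 157 ± 6.63 and 136 ± 14.1 CPM (SD, n = 4 each) with a log2FC of -0.20 (SE 0.07, adjusted p = 0.0201), and leaving out DOX-treated replicate 1 or 3 ended the call (adjusted p = 0.0660 and 0.0669). The ratio of XBP1 to HSPA5 counts, again a description, lay between 0.300 and 0.321 in untreated and between 0.301 and 0.333 in DOX-treated libraries.

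**Figure D3:**
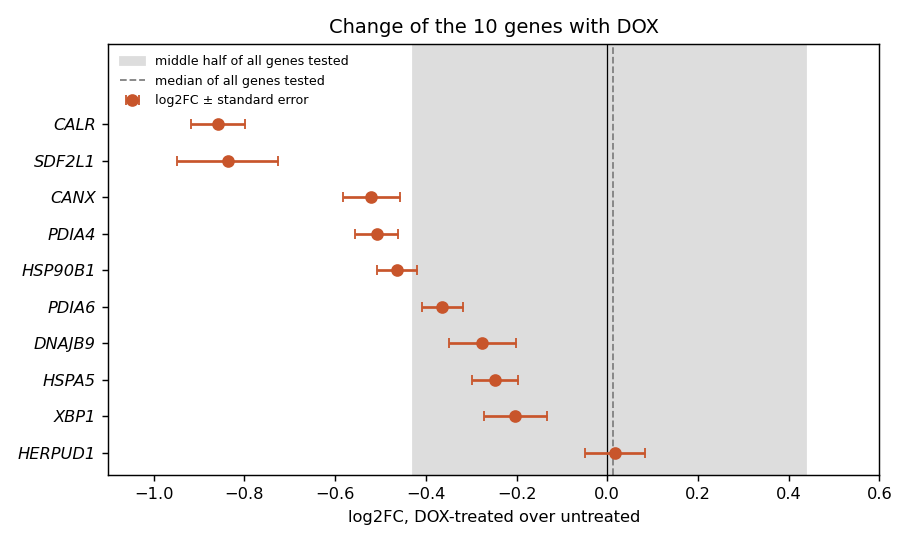
The log2FC of DOX-treated over untreated cells for each gene with its standard error, on a log2 scale, with the range between the quartiles of all genes tested shaded and their median dashed. CALR at -0.86 and SDF2L1 at -0.84 lie farthest from 0, and HERPUD1 at 0.02 lies next to the median of all genes.

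The calls depended in part on the scaling. With library size in place of TMM factors the median log2FC of all genes moved by 0.13, and 7 of the 10 genes were lower with 0 higher. HSPA5 then changed by -0.12 and PDIA6 by -0.24, both still called, whereas DNAJB9 at -0.15 (adjusted p = 0.0948) and XBP1 at -0.0762 (adjusted p = 0.334) were not. CALR, SDF2L1, CANX, PDIA4 and HSP90B1 kept their call in all 15 alternatives, as did HSPA5 and PDIA6. Without untreated replicate 3, the library that stood apart, 9 genes were lower and the median log2FC was -0.39.

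Levels between genes were set side by side as CPM per kilobase of exon, with exon lengths from GENCODE 29. The length is the union of the exons of all annotated transcripts of a gene. The order depends on that choice, since the length of the expressed transcripts was not measured. In untreated cells CALR was the highest at 317 ± 22.6 CPM per kilobase (SD, n = 4), followed by HSP90B1 at 169 ± 5.22, CANX at 154 ± 11.3 and HSPA5 at 131 ± 5.15. PDIA6 (64.4), XBP1 (51.8), PDIA4 (23.3), HERPUD1 (14.9), DNAJB9 (7.56) and SDF2L1 (4.45 CPM per kilobase) followed. Of neighbours in this order, only CANX and HSPA5 had ranges over libraries that overlapped. With DOX the levels per kilobase were 175 for CALR, 122 for HSP90B1, 110 for HSPA5, 107 for CANX, 50.1 for PDIA6, 45.0 for XBP1, 16.4 for PDIA4, 15.1 for HERPUD1, 6.25 for DNAJB9 and 2.49 for SDF2L1. HSPA5 and CANX changed places in that order, but their ranges overlapped, as did those of PDIA6 and XBP1 and those of PDIA4 and HERPUD1. CALR stayed the highest of the 10 per kilobase in both groups.

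Within the DOX-treated group, replicates 2 and 4 both lay above replicates 1 and 3 for 6 of the 10 genes, a pattern noticed after the values were seen. The mean CPM of replicates 2 and 4 exceeded that of replicates 1 and 3 by 19.3% for XBP1, 17.0% for HERPUD1, 14.7% for DNAJB9, 8.95% for CANX, 8.90% for HSPA5 and 6.30% for HSP90B1. CALR (-1.40%), PDIA4 (1.13%), PDIA6 (1.71%) and SDF2L1 (-0.897%) were nearly level. The same order of libraries held for 13 of 15 genes of the ATF4 and CHOP arm of the response, for 6 of 23 genes of ER-associated degradation and for 12.0% of all genes tested. Among other ER lists it held for 3 of 9 BiP partners, 2 of 7 lectin cycle genes and 3 of 16 disulfide bond enzymes. The order held for 3 of 19 translocon and signal recognition genes, 1 of 6 sensors and proteases and 0 of 7 ER prolyl isomerases. It held for 0 of 10 genes driven by the heat shock factor HSF1. Beside 12.0% of all genes, a count of 0 in so short a list says little about that list. Replicates 2 and 4 were also the shallowest libraries of the 8, with 38390649 and 43856143 counts, and the part of depth in the pattern was not tested.

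**Figure D4:**
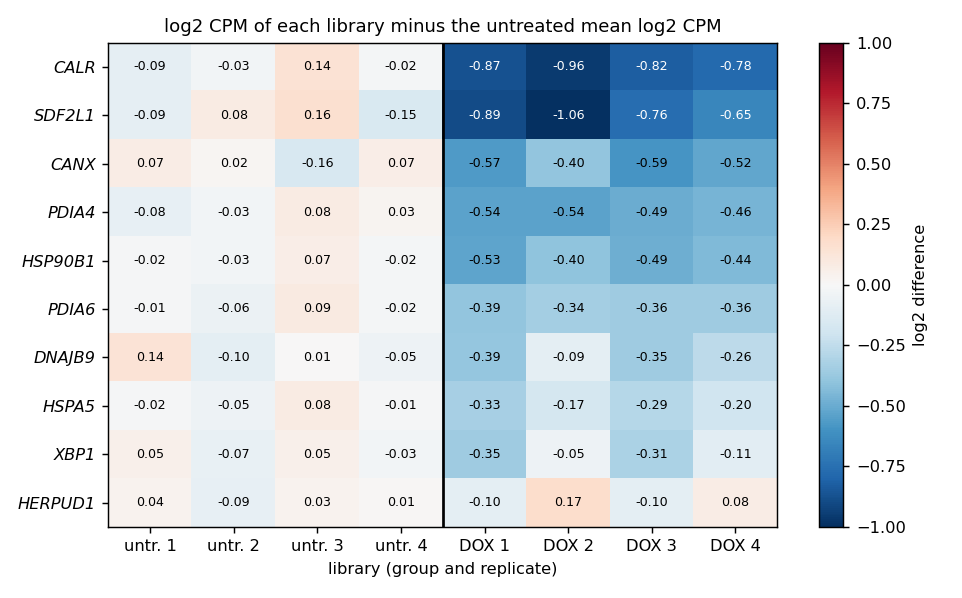
Log2 CPM of each gene (rows) in each library (columns) minus the mean log2 CPM of the untreated libraries, with blue for lower and red for higher and genes ordered by their log2FC. CALR and SDF2L1 are lowest in all DOX-treated libraries, and in the rows of DNAJB9, XBP1 and HERPUD1 the DOX-treated replicates 2 and 4 are higher than replicates 1 and 3.

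Of the partners of BiP, 4 of 9 were lower, 4 higher and 1 was not called (median log2FC 0.12). The counts of this and the following lists are read beside all genes tested, of which 38.1% were lower and 38.5% higher. Most are J-domain proteins and nucleotide exchange factors, which load and unload its clients. The list also holds HSPA13, an Hsp70 relative, and SDF2, a relative of SDF2L1, which was the gene not called. With library size only the counts were 2 lower and 5 higher, and without untreated replicate 4 or DOX-treated replicate 3 they were 2 lower and 4 higher. DNAJC10, a J-domain protein with reductase activity, rose from 141 ± 11.25 to 304 ± 15.1 CPM (SD, n = 4 each; log2FC 1.11, SE 0.06, adjusted p = 1.58e-08), and DNAJC1 rose with a log2FC of 0.70. SEC63, which brings BiP to the translocon, fell from 398 ± 17.8 to 224 ± 19.2 CPM (log2FC -0.83, SE 0.06, adjusted p = 2.10e-07), and the exchange factor SIL1 fell with a log2FC of -0.59.

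Of the other genes of the lectin cycle, 2 of 7 tested were lower, 3 higher and 2 not called (median log2FC -0.11). The counts here stand beside 38.1% lower and 38.5% higher among all genes tested. PDIA3, the disulfide isomerase that calreticulin and calnexin recruit, fell from 342 ± 16.9 to 253 ± 9.66 CPM (SD, n = 4 each; log2FC -0.44, SE 0.05, adjusted p = 7.25e-06). GANAB, the catalytic subunit of glucosidase II, which trims the sugar to the form they bind, had a log2FC of -0.25 (SE 0.04). UGGT2, a paralog of the folding sensor that adds glucose back, rose with a log2FC of 0.58 (SE 0.06), and MOGS, glucosidase I, with 0.31 (SE 0.05). Among 16 further disulfide bond enzymes, 8 were lower, 6 higher and 2 not called (median log2FC -0.08). PDIA2 fell the furthest, from 116 ± 9.85 to 16.9 ± 0.4996 CPM (SD, n = 4 each; log2FC -2.78, SE 0.07, adjusted p = 9.86e-12), and PDIA5 fell with a log2FC of -1.80. P4HB, the archetypal protein disulfide isomerase, named after its values were seen, had a log2FC of -1.06. QSOX1, a sulfhydryl oxidase, rose with a log2FC of 0.90, and the membrane-bound TMX3 with 0.35. ER prolyl isomerases counted 3 lower, 3 higher and 1 not called of 7, from PPIB (cyclophilin B, log2FC -0.72, SE 0.07) and FKBP7 (-0.27, SE 0.05) to FKBP10 (0.35, SE 0.06) and FKBP14 (1.28, SE 0.07).

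ER-associated degradation, to which HERPUD1 belongs, had 7 of 23 tested genes lower, 9 higher and 7 not called (median log2FC 0.04). All genes tested were lower in 38.1% and higher in 38.5%. With library size only, 4 of the degradation genes were lower and 14 higher. The mannosidase-like EDEM3 rose with a log2FC of 1.16 (SE 0.10, adjusted p = 8.30e-07). EDEM2 (log2FC -0.69, SE 0.08) and UFD1, a cofactor of the extraction ATPase (log2FC -0.57, SE 0.04), fell the most. Of MANF, CDNF, CRELD1 and CRELD2, a small list of factors tied to ER stress, 0 were lower, 2 higher and 2 not called. The membrane protein CRELD1 (log2FC 1.08, SE 0.07) and the secreted CRELD2 (log2FC 0.15, SE 0.06, adjusted p = 0.0459) rose. The count of rises was 1 with the Wald test, without a filter, and with any library but untreated replicate 3 or DOX-treated replicate 2 left out. In the translocon and signal recognition machinery, 13 of 19 genes were lower, 3 higher and 3 not called (median log2FC -0.36), beside 38.1% lower among all genes tested and 50.9% among those above 100 CPM. SSR2 (log2FC -0.75, SE 0.07) and SSR3 (log2FC -0.68, SE 0.06), subunits of the complex beside the channel, fell the most, and SEC61A2 (log2FC 0.56, SE 0.06) and SEC62 (log2FC 0.37, SE 0.05) rose.

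The RNAs of all 3 sensors were lower with DOX. ERN1 gave 117, 104, 86.2 and 109 CPM in untreated and 54.0, 58.3, 49.1 and 52.4 CPM in DOX-treated replicates 1 to 4, a log2FC of -0.96 (SE 0.09, adjusted p = 1.01e-06). EIF2AK3 fell from 174 ± 9.59 to 93.2 ± 2.90 CPM (SD, n = 4 each; log2FC -0.90, SE 0.05, adjusted p = 1.50e-08). ATF6 fell from 182 ± 13.4 to 128 ± 9.79 CPM (log2FC -0.51, SE 0.07, adjusted p = 2.60e-05). In none of these did a DOX-treated library reach an untreated one, as was so for 35.4% of all genes tested. By adjusted p, 38.1% of all genes tested were lower, and 50.9% of those above 100 CPM. The ATF6 paralog ATF6B (log2FC 0.00, SE 0.05, adjusted p = 0.997) and the Golgi proteases that cut ATF6, MBTPS1 (log2FC -0.01, SE 0.04, adjusted p = 0.815) and MBTPS2 (log2FC -0.04, SE 0.07, adjusted p = 0.604), did not pass the test. ERN2, the epithelial paralog of ERN1, reached at most 0.0249 CPM and was not tested.

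In the ATF4 and CHOP arm, downstream of PERK and shared with amino acid stress, 9 of 15 genes were lower, 5 higher and 1 not called (median log2FC -0.31). Among all genes tested, 38.1% were lower and 38.5% higher. DDIT4 fell from 235 ± 13.4 to 84.0 ± 10.3 CPM (SD, n = 4 each; log2FC -1.48, SE 0.08, adjusted p = 1.34e-08) and the transcription factor ATF5 from 433 ± 15.5 to 158 ± 23.1 CPM (log2FC -1.45, SE 0.09, adjusted p = 3.31e-08). ATF3, a stress-induced transcription factor, rose from 33.5 ± 1.91 to 86.7 ± 5.69 CPM (log2FC 1.37, SE 0.06, adjusted p = 1.73e-09). PPP1R15B, a phosphatase subunit that reverses the PERK signal, rose with a log2FC of 0.52 (SE 0.06, adjusted p = 6.28e-06). DDIT4, ATF5 and ATF3 each changed by a larger log2FC than any of the 10 genes.

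Paralogs outside the ER were compared with HSPA5 and HSP90B1. Of 8 tested, 4 were lower, 1 higher and 3 not called (median log2FC -0.24). Cytosolic HSP90AB1 (log2FC -0.77, SE 0.04, adjusted p = 1.12e-08) and HSP90AA1 (log2FC -0.40, SE 0.04, adjusted p = 4.67e-06) were lower, as was HSP90B1 in the ER, and the mitochondrial TRAP1 did not pass (log2FC 0.04, SE 0.06, adjusted p = 0.539). Of the Hsp70 genes, HSPA8 (log2FC -0.43, SE 0.05, adjusted p = 1.52e-05) was lower, mitochondrial HSPA9 (log2FC 0.21, SE 0.05, adjusted p = 0.00151) was higher, and HSPA4 (log2FC -0.08, SE 0.04, adjusted p = 0.106) did not pass. HSPA1A (log2FC -0.49, SE 0.07) and HSPA1B (log2FC -0.04, SE 0.06, adjusted p = 0.604) are near-identical, and the division of reads between them is uncertain. Of 10 genes driven by HSF1, the cytosolic counterpart of this response, 7 were lower, 2 higher and 1 not called (median log2FC -0.27). These counts and those of the paralogs stand beside 38.1% lower and 38.5% higher among all genes tested. The HSF1 genes ranged from HSPD1 (-0.87, SE 0.04) and HSPB1 (-0.76, SE 0.11) to BAG3 (0.12, SE 0.05, adjusted p = 0.0497) and CHORDC1 (0.65, SE 0.07). The count of genes that rose was 1 with DESeq2 size factors, both other tests, no filter or the replicate block, and with any library but untreated replicate 3 left out.

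**Figure D5:**
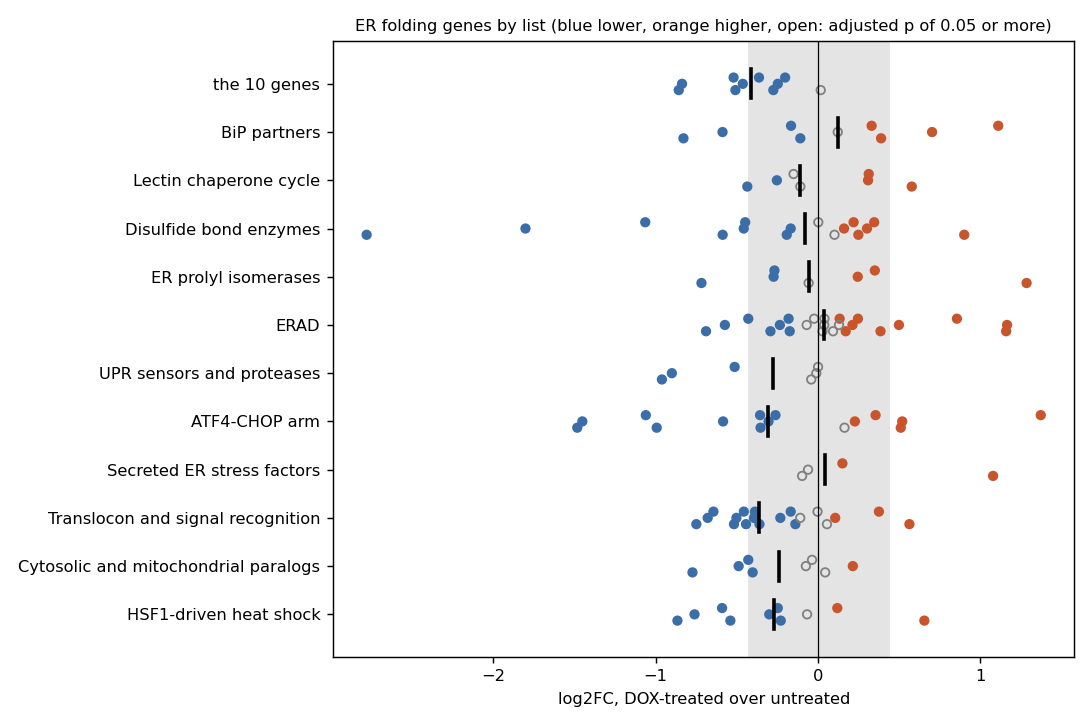
The log2FC of DOX-treated over untreated cells for every tested gene of each list, with filled points for an adjusted p below 0.05 (blue lower, orange higher), open points for the others, black bars for list medians and shading between the quartiles of all genes tested. The median is -0.41 for the 10 genes, -0.36 for the translocon list and 0.12 for the partners of BiP, and the CREB3 factors are left out because CREB3L3 lies off the scale.

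The ER-bound transcription factors of the CREB3 family, which are cut in the Golgi like ATF6, moved in both directions, with 2 of 5 lower, 1 higher and 2 not called (median log2FC -0.40). CREB3L3, known for its role in liver, had 0 to 2 counts in untreated and 2675 to 4221 counts in DOX-treated libraries, at 77.1 ± 7.38 CPM (SD, n = 4). Against a floor of 3 counts per library, or 0.0672 CPM at most, its mean with DOX was at least 1147-fold higher. CREB3L4 fell from 55.7 ± 5.61 to 19.0 ± 0.371 CPM (SD, n = 4 each; log2FC -1.55, SE 0.07, adjusted p = 2.04e-09) and CREB3 from 18.1 ± 1.64 to 13.4 ± 0.901 CPM (log2FC -0.44, SE 0.07, adjusted p = 2.12e-04). This floor covers counting error only.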

How the data were processed

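The authors prepared stranded polyA+ libraries, trimmed reads with Trim Galore, aligned them to GRCh38 with STAR and quantified genes of GENCODE 32 with RSEM. What the authors deposited for each gene is an expected count without normalization, in which reads that match several genes are divided among them. HSP90B1, CALR and PDIA6 had counts that are not whole in all 8 libraries and HSPA5 in 4. Whether counting used the strand is not given in the sources used here.

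Groups came from the sample labels. Expected counts were rounded, the expression filter kept genes that exceeded 1 CPM in 4 or more libraries, and groups were compared with edgeR 4.0.16 in R 4.3.3 (TMM, quasi-likelihood test, no covariates, Benjamini-Hochberg adjustment over 15222 genes, threshold 0.05). The SE is the absolute log2FC over the square root of the F statistic. Percentages lower were computed from the log2FC. The 4 replicates per group are independent biological replicates according to the study's methods. The edgeR fits were tested on simulated data. Symbols, coordinates and exon lengths came from GENCODE 29, promoter windows from RefSeq (GRCh38.p14). Python 3.11.15 with scipy 1.17.1 was used for the rest.

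The 10 genes and 15 further lists were chosen with earlier results of these data known. The text names, besides the 10 genes, the 2 largest rises and 2 largest falls past the threshold in each list, all sensors and proteases, all tested paralogs, and MYC, CAD and NCL, except that 1 gene this rule selects is not reported here. HSPA14 has 2 identifiers and was left out, and CALR3, DERL3, ERN2 and HSPA2 did not pass the expression filter. Alternatives were DESeq2 size factors, library size only, edgeR's likelihood ratio test, DESeq2 1.42.0 with its Wald test, other filters on low counts, the replicate number as a block and each library left out in turn.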

Additional observations from a re-analysis of the deposited data

Results flagged for a closer look

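HSP90B1 in untreated replicate 3 stood at 828 CPM, apart from 783, 776 and 778 CPM in replicates 1, 2 and 4. The gap to its nearest neighbour was 0.870 of the range of the group, above Dixon's critical value for 4 values. Chance sets such a sample apart in about 1 of 20 groups, and 20 groups of 4 values were examined. These groups come from the same 8 libraries and are not independent. Untreated replicate 3 is also the library that stood apart from its group by chi-square over the genes. Without that library HSP90B1 was still lower with DOX (log2FC -0.44, adjusted p = 1.54e-07).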

How the results depend on the processing

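Of 150 log2FC values of the 10 genes over 15 alternatives, 142 kept their direction and their side of the threshold, and so did 392 of 420 counts of calls within 1.5 times. With library size only, the median log2FC of all genes moved by 0.13 and 4715 genes were lower and 7157 higher, 39.7% of calls lower against 49.7%. DNAJB9 (-0.149) and XBP1 (-0.0762) then lost their call, as XBP1 did without DOX-treated replicate 1 or 3 (leave-one-out range -0.26 to -0.16), and the counts changed to 2 BiP partners lower, 4 ERAD genes lower and 14 higher, 2 sensors or proteases higher and 2 paralogs higher. HERPUD1 turned negative without a filter on low counts (-0.0109), without untreated replicate 2 (-0.0190) and without DOX-treated replicate 2 (-0.0392) or 4 (-0.00418), over a range of -0.0392 to 0.0540 with 1 library left out. With each library left out in turn, calls ranged from 8 to 9 for the 10 genes lower, 2 to 4 for BiP partners lower, 1 to 2 for factors of the CRELD and MANF list higher and 1 to 2 for HSF1 genes higher. Factors of that list higher numbered 1 with the Wald test and without a filter, and HSF1 genes higher numbered 1 with DESeq2 size factors, both other tests, no filter and the replicate block. CREB3 factors higher numbered 0 when more than 4 libraries had to pass 1 CPM, since CREB3L3 is then not tested. The cause of the other changes was not tested.

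Same-numbered untreated and DOX-treated libraries correlated in their deviations from the group means with r of 0.22, 0.20, 0.34 and -0.27 for replicates 1 to 4. The mean r with the other-numbered libraries was -0.093, -0.077, -0.092 and 0.08. The same-numbered r was thus the higher for replicates 1 to 3 and the lower for replicate 4. The numbers were not taken as pairs in the main fit. With the replicate number as a block, 5843 genes were lower and 5962 higher, 9 of the 10 genes were lower, and no call among the 10 changed. Depth limits SDF2L1 the most, at 94 to 268 counts.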

Other observations

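Beyond the 10 genes, 10 other tested genes held an exact ERSE in the 250 bases before a start, of which 6 were lower with DOX, 3 higher and 1 not called (median log2FC -0.17, edgeR quasi-likelihood test). ALG12, an enzyme of glycan assembly, had a log2FC of -0.47 (SE 0.05, adjusted p = 4.54e-06), FICD, the enzyme that modifies BiP with AMP, -0.39 (SE 0.08, adjusted p = 0.00122), and SERP1, a translocon-associated protein, -0.20 (SE 0.05, adjusted p = 0.00427). SYNPO (-0.42), TMEM120A (-0.28) and EIF2A (-0.14) were also lower. TRIM5 (0.51), ZNF17 (0.37) and CRELD2 (0.15) were higher, and ERO1B, an oxidase of disulfide isomerases, did not pass (log2FC 0.00, adjusted p = 0.982). Of the 10661 tested genes with a promoter window, those without the element were lower in 38.3% and had a median log2FC of 0.01.

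Among 12 other tested genes with ERSE-II, 6 were lower and 3 higher, with a median log2FC of -0.15. Tested genes without ERSE-II were lower in 38.3% and had a median log2FC of 0.01. HYOU1, the exchange factor and large Hsp70 relative that works with BiP, was one of them and had a log2FC of -0.11 (SE 0.04, adjusted p = 0.0430). Of 1201 other tested genes with the E-box CACGTG, 41.0% were lower and 34.5% higher, beside 38.0% lower among genes without it.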
